A study of Mus musculus with 12 samples.

Results

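The insulin-like growth factor (IGF) genes were compared in mice between side population cells taken from extraocular muscle (EOM), the small muscles that turn the eye, and side population cells of the tibialis anterior (TA), a muscle of the lower hind limb. Side population cells are the rare cells of a dissociated tissue that pump out a DNA-binding dye, and they include stem and progenitor cells in several tissues. The genes were the ligands Igf1 and Igf2, the receptors Igf1r and Igf2r, and the binding proteins Igfbp2, Igfbp3, Igfbp4, Igfbp5, Igfbp6 and Igfbp7. They were 10 of 18194 named genes on the array, and they were found as the 28 of 45101 probe sets whose only gene symbol in the platform annotation was one of these names. Each group had 6 separately isolated preparations, 1 array each, numbered 0, 1, 2, 3, 5 and 6 in both groups. No treatment or genetic change is named for either group, and strain, age, sex and the number of mice per preparation are not given in the sources used here. The sources used here do not say whether preparations of the same number in the 2 muscles shared mice or a day.

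IGF1 and IGF2 are small secreted hormones that drive growth and survival, and in skeletal muscle IGF1 is known for its part in growth and regeneration. Both act through IGF1R, a receptor tyrosine kinase that signals through the IRS adaptors, PI3 kinase and AKT, while IGF2R carries IGF2 to lysosomes for breakdown. The binding proteins hold IGFs in blood and matrix, lengthen their life and set how much reaches the receptor, and proteases that cut them release the ligand.

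Values are MAS5 signals, a linear brightness per probe set in arbitrary units, which can be compared between arrays for 1 probe set but not between probe sets. No read count stands behind them, so the precision rests on 6 arrays per group. Abcg2, the pump behind the dye efflux, had signals between 100.3 and 1014.3 in EOM and between 1705.1 and 3460.7 in TA. Array EOM 1 had a median signal of 87.2, TA 3 of 69.6 and TA 5 of 63.2, against 31.2 to 43.4 on the other 9 arrays. The log2 ratio of 3′ to 5′ signal of the actin and Gapdh controls, which grows as amplified RNA shortens, reached 5.00 for EOM 1, 5.74 for TA 3 and 5.88 for TA 5, and lay between 2.35 and 4.96 for the others, so EOM 1 was close to the highest of them. Results that rest on these arrays are given with and without them.

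EOM side population cells had more Igf1, Igfbp4 and Igfbp5 signal and less Igfbp3 signal than TA cells. Of the 28 probe sets, 27 passed the filter on low signal, and all 10 genes had at least 1 among them. With p-values adjusted over all 27023 tested probe sets (limma, adjusted p under 0.05), 11 of the 27 passed, against 8.23% of all tested probe sets. Of these, 9 were higher in EOM (3.20% of all) and 2 were lower (5.03% of all). The median log2 fold change, EOM minus TA, was 0.50 over the 27 and -0.03 over all tested probe sets. Signals of the 6 EOM and the 6 TA arrays were fully separate on 9 of the 27 probe sets, against 5.43% of all tested. Probe sets of the same gene are not independent. Most of the 9 higher ones, and most of the 9 separate ones, were of Igf1 and Igfbp4. Counted by the probe set that represents each gene, 3 of the 10 genes were higher and 1 was lower, where 10.9% of all 13068 tested genes passed. Without EOM 1, 13 of the 27 passed (16.1% of all tested did), 11 higher (7.87% of all) and 2 lower (8.26% of all). Without EOM 1, TA 3 and TA 5, 15 of the 27 passed (17.3% of all), 12 higher (8.35% of all) and 3 lower (8.95% of all). As these are RNA pools of sorted cells, a difference in the number of cells of one type cannot be told apart from a difference in RNA per cell.

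**Figure D1:**
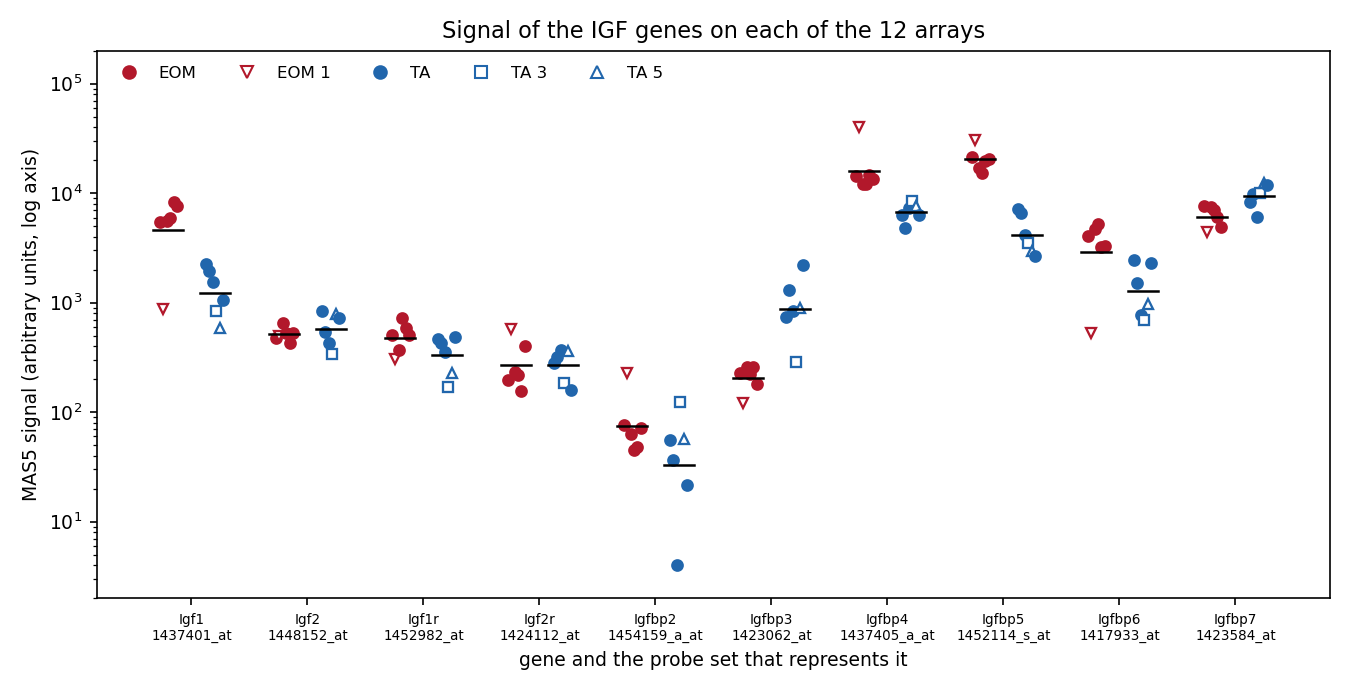
MAS5 signal (log axis) of the probe set that represents each IGF gene, on the 6 EOM arrays (red, left) and the 6 TA arrays (blue, right), with a bar at the geometric mean. Open symbols are EOM 1, TA 3 and TA 5. The groups do not overlap for Igfbp3, Igfbp4 and Igfbp5, and EOM 1 lies far below the other EOM arrays for Igf1 and Igfbp6.

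The promoters of the 4 genes called on their representing probe sets are shown because 3 of these genes rose in EOM and 1 fell. The windows hold the 250 bases before the RefSeq start and come from the GRCm38.p6 mouse assembly. They are chr10:87860861-87861110 (plus strand) for Igf1, chr11:99040994-99041243 (plus strand) for Igfbp4, chr1:72874866-72875115 (minus strand) for Igfbp5 and chr11:7213924-7214173 (minus strand) for Igfbp3. Each is written 5′ to 3′ along the gene. Capitals mark matches, on either strand, to the core promoter motifs TATAAA (the TATA box), CCAAT (the CCAAT box) and GGGCGG (the GC box).
Igf1: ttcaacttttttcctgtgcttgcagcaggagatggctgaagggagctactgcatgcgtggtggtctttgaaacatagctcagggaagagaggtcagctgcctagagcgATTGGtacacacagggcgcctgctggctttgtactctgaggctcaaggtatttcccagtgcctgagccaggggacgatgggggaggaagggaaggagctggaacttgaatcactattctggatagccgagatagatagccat
Igfbp4: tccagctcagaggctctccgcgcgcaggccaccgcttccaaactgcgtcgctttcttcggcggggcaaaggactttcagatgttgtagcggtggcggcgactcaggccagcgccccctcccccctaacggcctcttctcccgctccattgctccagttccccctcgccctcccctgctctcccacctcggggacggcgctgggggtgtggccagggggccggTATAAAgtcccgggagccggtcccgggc
Igfbp5: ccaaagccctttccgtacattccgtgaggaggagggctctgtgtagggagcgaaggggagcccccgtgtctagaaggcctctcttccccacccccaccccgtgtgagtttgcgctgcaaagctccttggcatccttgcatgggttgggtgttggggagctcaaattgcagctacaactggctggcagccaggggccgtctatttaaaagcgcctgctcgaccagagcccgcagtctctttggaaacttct
Igfbp3: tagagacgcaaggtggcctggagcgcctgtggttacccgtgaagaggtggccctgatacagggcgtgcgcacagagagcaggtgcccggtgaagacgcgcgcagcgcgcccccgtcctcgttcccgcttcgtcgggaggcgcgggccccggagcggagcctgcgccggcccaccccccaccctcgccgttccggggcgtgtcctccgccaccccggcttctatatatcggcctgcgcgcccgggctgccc
Igfbp4 has TATAAA starting 28 bases before its start, and Igf1 has CCAAT on the other strand at 142 bases. The Igfbp5 and Igfbp3 windows hold no exact match to these motifs, nor did any of the 4 hold GGGCGG. Only exact letters were searched, so close variants, such as tatatat near the end of the Igfbp3 window, are not marked. Absence of a mark therefore does not mean absence of a TATA box. Of 32851 RefSeq windows of the same length, TATAAA is in 12.4%, CCAAT in 33.8% and GGGCGG in 32.7%. The share of G and C was 52.8% for Igf1, 69.2% for Igfbp4, 58.8% for Igfbp5 and 73.2% for Igfbp3, against a median of 52.4% over all windows. For Igf1, Igfbp4 and Igfbp3 the RefSeq gene record begins further upstream than the start used here.

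Of the ligands, Igf1 was higher in EOM and Igf2 was not called. Igf1 had 4 probe sets, and the one with the highest mean signal over all arrays (1437401_at) represents the gene. Its signal had a lowest value of 873.5, a median of 5789 and a highest value of 8370 in EOM, against 584.1, 1301 and 2279 in TA. All EOM arrays except EOM 1 lay above every TA array. The log2 fold change was 1.90 ± 0.48 (SE, adjusted p = 0.0170), a 3.72-fold difference. Without TA 5 it was 1.68 and no longer passed (adjusted p = 0.0527), nor did it with the arrays centred on their medians (1.99, adjusted p = 0.104), while without EOM 1 it was 2.37 ± 0.30 (adjusted p = 1.56e-05).

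The other Igf1 probe sets pointed the same way. For 1419519_at the signal ran from 1476 through a median of 3839 to 5430 in EOM, against 266.0, 457.7 and 1021 in TA, with no overlap. Its log2 fold change was 2.82 ± 0.37 (adjusted p = 6.93e-05). Likewise 1452014_a_at separated the groups fully, at 480.0 to 1354 in EOM and 82.5 to 276.8 in TA, with a log2 fold change of 2.21 ± 0.32 (adjusted p = 0.000172). Both passed in each of the 12 fits that left out 1 array. On 1434413_at, 5 EOM arrays had 4826 to 6435, EOM 1 had 166.9, and TA had 399.9 to 1775. With EOM 1 the difference was 1.82 ± 0.71 and did not pass (adjusted p = 0.141). Without EOM 1 it was 2.64 ± 0.33 (adjusted p = 1.56e-05).

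Igf2, the ligand most active before birth, is an imprinted gene expressed from the paternal copy. On 1448152_at its signal was 428.1 at the lowest, 509.9 at the median and 648.7 at the highest in EOM, against 336.8, 635.7 and 841.0 in TA. The EOM values lay inside the TA range, and the log2 fold change was -0.17 ± 0.26 (adjusted p = 0.816). On the dim 1415931_at the median was 25.9 in EOM and 24.4 in TA, and EOM 1 alone reached 190.5 (log2 fold change -0.11 ± 0.55, adjusted p = 0.957).

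**Figure D2:**
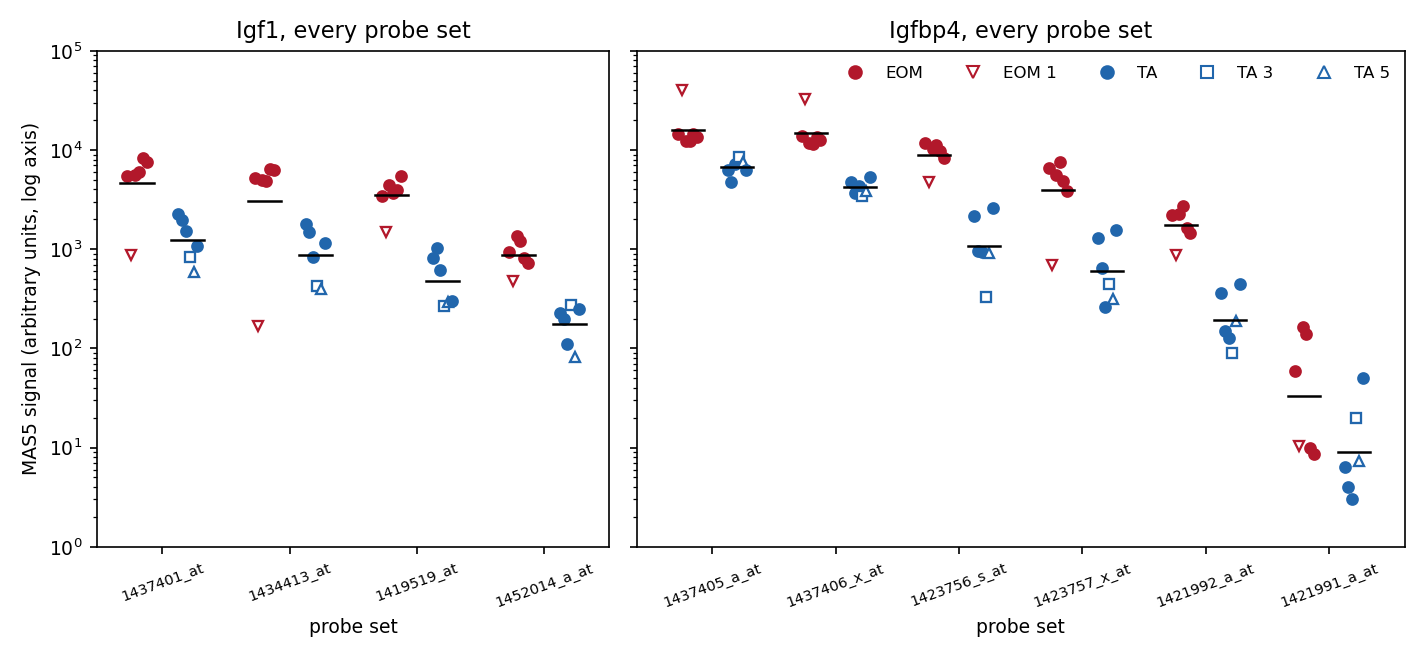
MAS5 signal (log axis) of all 4 Igf1 and all 6 Igfbp4 probe sets on each EOM array (red, left) and TA array (blue, right), with a bar at the geometric mean. EOM 1, the open triangle pointing down, is the lowest EOM array on every Igf1 probe set, the highest on the first 2 Igfbp4 probe sets and the lowest on the next 3.

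Neither receptor was called on any probe set. Igf1r, the receptor of both ligands, had 5 tested probe sets. On 1452982_at its signal was 304.0, 506.9 and 722.9 (lowest, median, highest) in EOM, against 169.4, 391.6 and 489.8 in TA, and the groups overlapped. The log2 fold change was 0.50 ± 0.30 (adjusted p = 0.396). Next, 1428967_at was at 0.48 ± 0.32 (adjusted p = 0.458), and at 0.70 ± 0.26 without EOM 1 (adjusted p = 0.0759). The others, 1426565_at, 1446303_at and 1452108_at, had medians between 41.1 and 59.8 in both groups and log2 fold changes of 0.48, 0.19 and -0.35. Igf2r, which clears IGF2 and also carries lysosomal enzymes, had 2 probe sets. On 1424112_at it had 156.2, 226.4 and 570.0 in EOM, against 160.7, 301.7 and 372.3 in TA, and a log2 fold change of 0.00 ± 0.32 (adjusted p = 0.998). On 1424111_at it was at -0.46 ± 0.25 (adjusted p = 0.334), with 124.2 to 275.8 in EOM and 209.5 to 393.6 in TA.

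Igfbp4 was higher in EOM on each of its 5 tested probe sets. IGFBP4 binds both ligands and mostly keeps them from the receptor until the protease PAPP-A cuts it. On 1437405_a_at, which represents the gene, the signal was 12258 at the lowest, 14007 at the median and 39867 at the highest in EOM, against 4774, 6788 and 8559 in TA. Every EOM array was above every TA array, and EOM 1 held the highest value, where the other 5 EOM arrays had at most 14540. With all arrays the log2 fold change came to 1.26 ± 0.30 (adjusted p = 0.0128), and without EOM 1 to 1.00 ± 0.20 (adjusted p = 0.00165). When the replicate number was added to the fit as a fixed block, the 1.26 did not pass (adjusted p = 0.0595).

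The size of the Igfbp4 difference varied between its probe sets, and with their mean in place of the brightest one it was 2.36 (adjusted p = 1.75e-05). For 1437406_x_at the groups did not overlap, at 11393 to 32321 in EOM and 3420 to 5342 in TA, and the log2 fold change was 1.81 ± 0.28 (adjusted p = 0.000313). The suffix x marks probes that may also bind other transcripts. The difference was larger on 1423756_s_at, at 4735 to 11753 in EOM and 331.4 to 2595 in TA (3.03 ± 0.40, adjusted p = 7.15e-05), and on 1421992_a_at, at 864.7 to 2747 in EOM and 90.8 to 444.7 in TA (3.06 ± 0.37, adjusted p = 2.50e-05). Neither overlapped between the groups. On 1423757_x_at the log2 fold change was 2.66 ± 0.54 (adjusted p = 0.00356); EOM 1 had 688.0, inside the TA range of 260.1 to 1565, and the other EOM arrays had 3852 to 7519. The dim 1421991_a_at was under the filter, with 8.7 to 164.6 in EOM and 3.0 to 50.2 in TA (exact permutation test of mean log2 signal, two-sided, n = 6 per group, p = 0.115, where 0.00216 is the smallest this design allows). All 5 tested probe sets passed in each of the 12 fits that left out 1 array.

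Igfbp5 was higher in EOM on the brighter of its 2 probe sets. IGFBP5 binds strongly to matrix, and in bone and muscle it can either hold back IGFs or bring them to cells. On 1452114_s_at the signal was 15415, 20201 and 30906 (lowest, median, highest) in EOM, against 2686, 3811 and 7105 in TA. The lowest EOM array was above the highest TA array, and the log2 fold change was 2.28 ± 0.30 (adjusted p = 5.49e-05), a 4.85-fold difference. It lay between 2.15 and 2.43 with any 1 array left out. The suffix s marks probes shared by several transcripts. On 1422313_a_at, 5 EOM arrays had 91.4 to 158.4, EOM 1 had 1683, and TA had 33.0 to 162.4. The difference there was 1.38 ± 0.56 (adjusted p = 0.160), 0.77 ± 0.32 without EOM 1 (adjusted p = 0.118) and 0.96 ± 0.27 without EOM 1, TA 3 and TA 5 (adjusted p = 0.0182).

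Igfbp6 was not called with 12 equally weighted arrays and was called without EOM 1. IGFBP6 is the binding protein that prefers IGF2 over IGF1. Its 1 probe set, 1417933_at, had 527.1, 3667 and 5252 (lowest, median, highest) in EOM, against 688.2, 1233 and 2430 in TA. EOM 1 was below all TA arrays, and the other 5 EOM arrays, from 3240 upward, were above all of them. The log2 fold change was 1.16 ± 0.49 with 12 arrays (adjusted p = 0.177), 1.65 ± 0.31 without EOM 1 (adjusted p = 0.00102) and 1.33 ± 0.28 without EOM 1, TA 3 and TA 5 (adjusted p = 0.00279). With 12 arrays and their 3′ to 5′ ratio added to the fit it was 0.82 (adjusted p = 0.220). Igfbp2, a binding protein of fetal tissue and blood, was dim. On 1454159_a_at it had 44.8, 67.6 and 229.5 (lowest, median, highest) in EOM, against 4.0, 46.2 and 123.7 in TA. The groups overlapped, the highest EOM value was that of EOM 1, and the log2 fold change was 0.73 ± 0.44 (adjusted p = 0.406).

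Igfbp3 was lower in EOM. IGFBP3 is the main IGF carrier of blood, where it joins IGF1 and the acid-labile subunit in one complex, and vessel cells are among its known sources. On 1423062_at the signal was 120.4, 226.7 and 258.3 (lowest, median, highest) in EOM, against 286.2, 863.2 and 2206 in TA. The groups did not overlap, and TA 3 was the TA array nearest to EOM. The log2 fold change was -2.02 ± 0.37 (adjusted p = 0.00163), which is 4.05-fold lower in EOM, and it passed in each of the 12 fits that left out 1 array. On 1458268_s_at, with medians of 52.4 in EOM and 141.9 in TA, it was -1.45 ± 0.46 (adjusted p = 0.0633). That probe set passed without EOM 0 (-1.67, adjusted p = 0.0438), without TA 5 (-1.68, adjusted p = 0.0360) and without EOM 1, TA 3 and TA 5 (-1.73, adjusted p = 0.00572). In all it passed in only 5 of 24 alternative settings. Of the 12 fits that left out 1 array it passed in 2, and its adjusted p there reached 0.144.

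Igfbp7 gave a mixed result. IGFBP7 is a matrix protein of vessels that binds IGFs weakly. On 1423585_at it was lower in EOM, at 94.6, 135.6 and 195.1 (lowest, median, highest), against 196.6, 384.7 and 473.3 in TA, with no overlap and a log2 fold change of -1.36 ± 0.27 (adjusted p = 0.00294). On the brighter 1423584_at, which represents the gene, 4387 to 7611 in EOM overlapped 6115 to 12480 in TA, and the difference of -0.64 ± 0.26 did not pass (adjusted p = 0.160). The dim 1437804_at was at -0.05 ± 0.57 (adjusted p = 0.980).

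**Figure D3:**
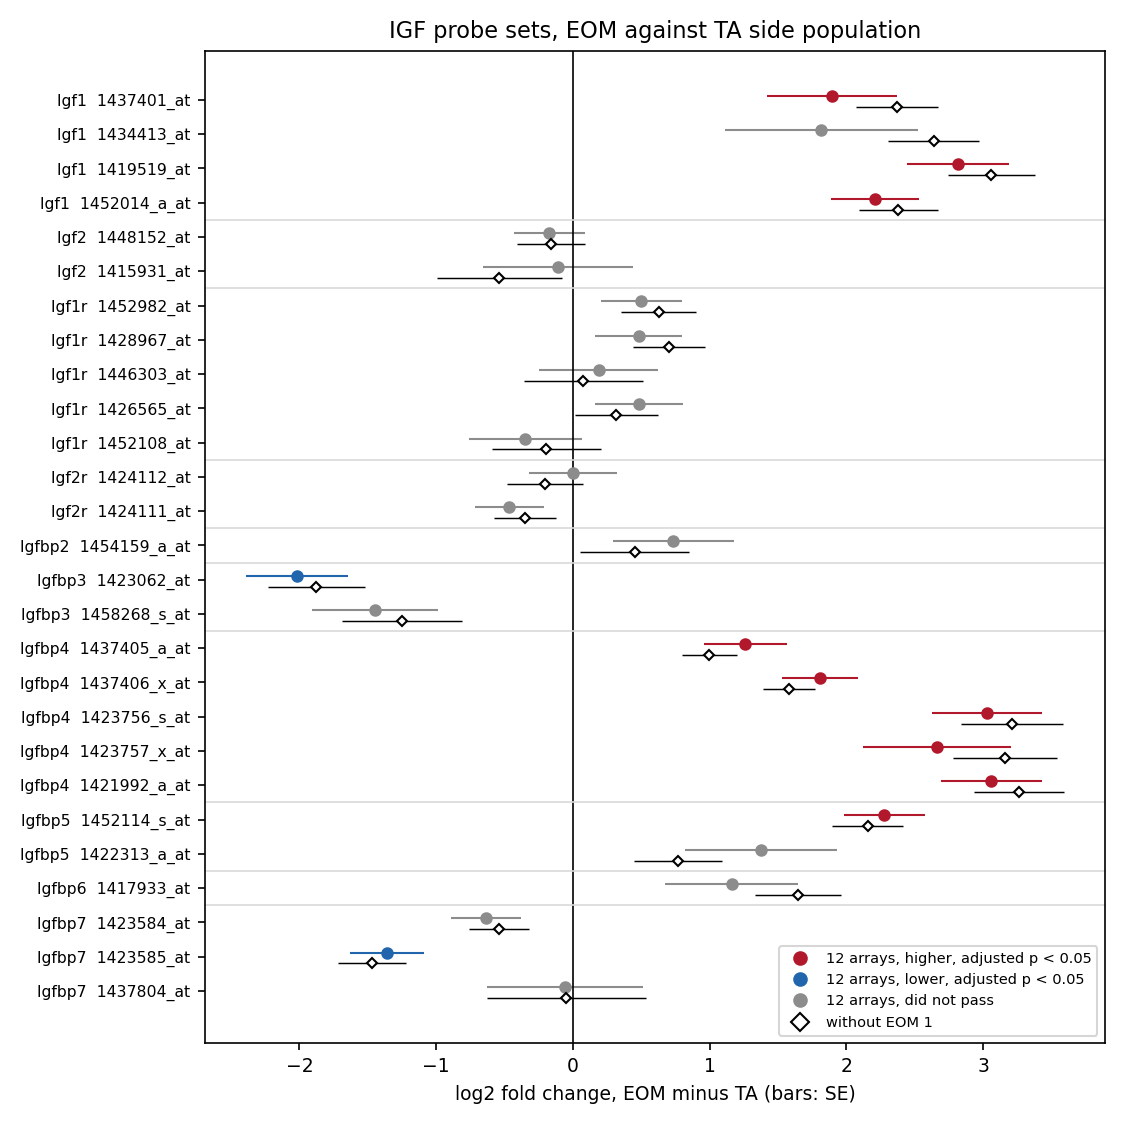
Log2 fold change, EOM minus TA, with its SE for the 27 tested IGF probe sets. Filled circles use all 12 arrays, red where higher and blue where lower in EOM at an adjusted p under 0.05, and open diamonds leave out EOM 1. All tested Igf1 and Igfbp4 probe sets lie between 1.26 and 3.06 with 12 arrays, while those of Igf1r and Igf2r lie between -0.46 and 0.50.

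Other genes of the pathway were taken from 6 lists of 91 genes, of which 84 were named on the array and 76 were tested. By their representing probe sets 9 were higher and 4 lower in EOM, where 4.05% of all 13068 tested genes were higher and 6.81% were lower. The median log2 fold change of the 76 was 0.22, against -0.04 over all tested genes. Without EOM 1, 22 of the 76 passed, where 20.5% of all genes did, and without EOM 1, TA 3 and TA 5, 23 passed, where 21.8% of all genes did. In the list of IGF handling and proteases, 3 of 14 rose and 1 fell. Pcsk6 and Pcsk5 are proprotein convertases, of the furin family that trims precursor proteins. Pcsk6 had 630.4 to 2754 in EOM and 169.6 to 565.5 in TA (2.49 ± 0.36, adjusted p = 0.000157). Pcsk5 had 1631 to 3928 in EOM and 550.0 to 1045 in TA (1.60 ± 0.26, adjusted p = 0.000483), with its other probe sets at 2.13 (adjusted p = 0.0290, kept in 4 of the 12 fits that left out 1 array) and, on the dimmest, 0.52.

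Htra1, a secreted serine protease that can cut IGFBP5, rose on both of its probe sets. On the brighter, 16703 to 25222 in EOM stood against 4138 to 9520 in TA, with a log2 fold change of 1.57 ± 0.26 (adjusted p = 0.000635), and the other was at 1.77. Stc1, a stanniocalcin, the family that blocks PAPP-A, fell, with 69.9 to 105.0 in EOM and 134.3 to 255.5 in TA (-1.03 ± 0.24, adjusted p = 0.0101). Pappa, which encodes PAPP-A and is named here after its values were seen, was dim, with 28.2 to 63.4 in EOM and 14.8 to 112.1 in TA (-0.32, adjusted p = 0.723).

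Through Ghr, the growth hormone receptor, growth hormone raises Igf1 transcription in liver and other tissues. Ghr was the 1 gene of 8 on the growth hormone list to rise, where 4.05% of all tested genes rose. Its signal was 274.4 on EOM 1 and 2693 to 4306 on the other EOM arrays, against 397.5 to 949.5 in TA. Its log2 fold change came to 1.91 ± 0.52 (adjusted p = 0.0286), and only 3 of the 12 fits that left out 1 array kept the call; without EOM 3 the adjusted p reached 0.0758. Without EOM 1 it was 2.51 (adjusted p = 9.40e-07). Its 2 other probe sets were at 1.41 (adjusted p = 0.0988) and 0.89 (adjusted p = 0.166).

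Among 15 receptor-proximal signalling genes, Grb14 alone rose and none fell. GRB14 is an adaptor that docks on the active insulin receptor and holds it back. It had 148.3 to 427.7 in EOM and 33.0 to 128.8 in TA, with no overlap (1.82 ± 0.33, adjusted p = 0.00134). Of 22 genes of the PI3K, AKT and mTOR arm, Pdpk1 rose and none fell. Over all 13068 tested genes 4.05% rose and 6.81% fell, so 1 gene in either list is near the share of all genes. PDPK1 is the kinase that switches on AKT. It had 394.2 to 1071 in EOM and 183.4 to 351.4 in TA (1.06 ± 0.28, adjusted p = 0.0229), but its other probe set was at -0.29. Without EOM 2 its adjusted p was 0.0632, and 8 of the 12 such fits kept the call.

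Of 5 genes on the list of IGF mRNA binding and imprinted partners, the imprinted zinc finger factor Plagl1 rose (1.46 ± 0.35, adjusted p = 0.0114). EOM 1 had 1315, inside the TA range of 1029 to 2014, and the other EOM arrays had 4400 to 5937. On its dim second probe set it was at 0.05. Among 12 surface and matrix partners of IGF receptors and binding proteins, 2 rose and 3 fell, where 4.05% of all tested genes rose and 6.81% fell. The endocytic receptor Lrp1, to which IGFBP3 binds, rose (1.54 ± 0.35, adjusted p = 0.00750, with a dim second probe set at 0.21). So did the proteoglycan Gpc3, whose loss causes overgrowth (1.76 ± 0.31, adjusted p = 0.00106). Cd93, a surface receptor of vessels to which IGFBP7 binds, fell (-4.10 ± 0.37, adjusted p = 1.24e-06), and of its 4 probe sets 2 passed; it is also on the list of endothelial markers. The laminin-binding integrin subunit Itga6 fell on both probe sets (-3.81 ± 0.28, adjusted p = 2.24e-07, and -3.75 ± 0.44). Its partner subunit Itgb4, at 3.8 to 42.4 in EOM and 53.7 to 177.9 in TA, fell as well (adjusted p = 0.000924). Over 24 alternative settings Ghr kept its call in 13, Pdpk1 in 18, Stc1 in 22, and Plagl1 and Lrp1 in 23.

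**Figure D4:**
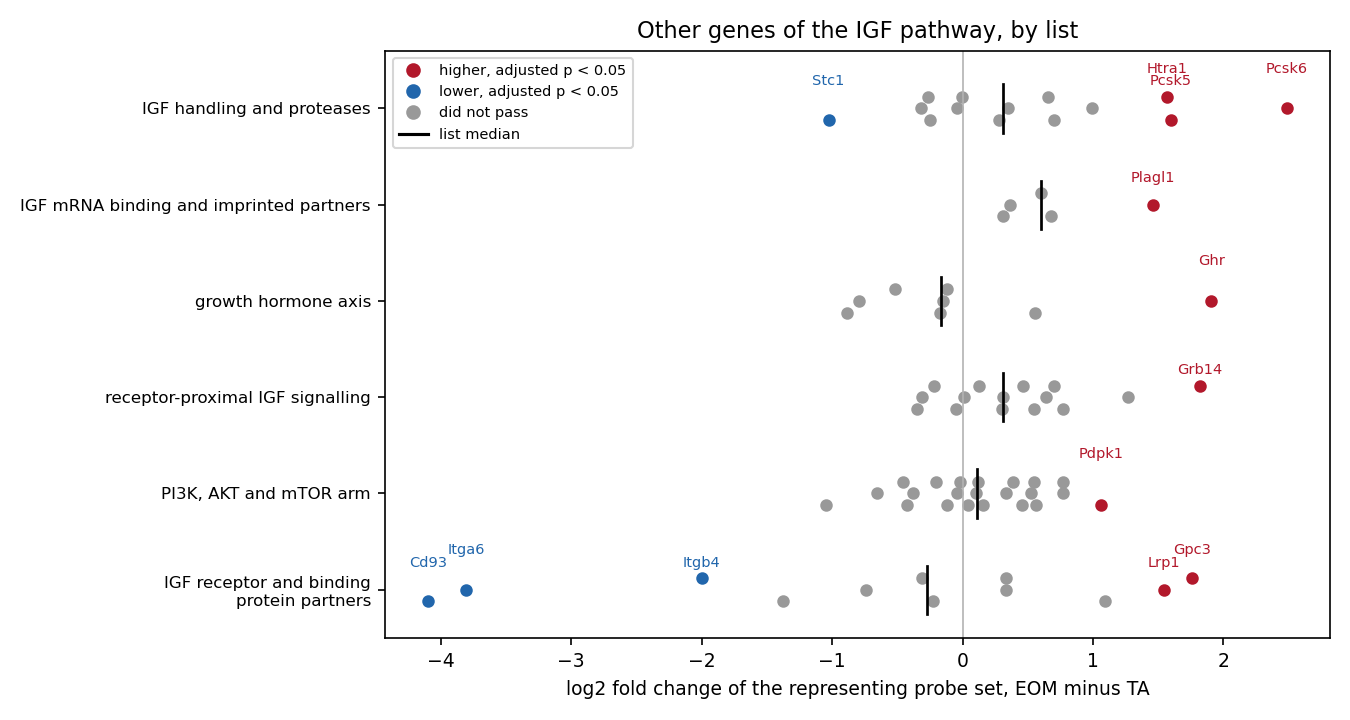
Log2 fold change, EOM minus TA, of the representing probe sets of 76 other IGF pathway genes in 6 lists. Each point is a gene, red where higher and blue where lower in EOM at an adjusted p under 0.05, and the black bar is the list's median. The 9 genes that rose lie between 1.06 and 2.49, and the 4 that fell between -4.10 and -1.03.

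Markers of several cell types differed between the groups beside these genes. The shares over all 13068 tested genes were 4.05% higher and 6.81% lower in EOM. Endothelial markers fell in EOM (18 of 20 tested, Cd93 among them, 0 higher), with a summed signal of 2714 to 4945 in EOM and 23674 to 59269 in TA. Among pericyte and smooth muscle markers 12 of 15 fell and 0 rose (6573 to 10971 in EOM, 22138 to 39474 in TA). Tenocyte markers fell too (7 of 8 tested, 0 higher, 2776 to 13831 in EOM, 34741 to 117148 in TA). So did 9 of 14 leukocyte and macrophage markers (0 higher, 644.4 to 4826 in EOM, 4964 to 14167 in TA). The 3 adipocyte markers tested, Fabp4, Pparg and Lpl, fell, while Adipoq, Cidec, Lep and Retn were under the filter on low signal; Fabp4 and Lpl are also known from capillary endothelium (4347 to 8759 in EOM, 19398 to 31902 in TA). In contrast 8 of the 17 markers tested for fibroblasts and fibro-adipogenic progenitors were higher in EOM and 0 were lower, with summed signals that overlapped (167452 to 380777 in EOM, 106724 to 225069 in TA). The highest EOM sum was that of EOM 1, and the other EOM arrays reached 206113. Bright probe sets weigh most in these sums, so they are compared only between arrays and not between lists. The 9 fibroblast markers that did not pass ran from Smoc2 at -1.51 to Lum at 1.54, with Dcn at 0.16 and Col1a1 at -0.84. Of 9 myogenic markers tested 1 fell, the skeletal actin Acta1 (-1.66, adjusted p = 0.0292). The myogenic markers Pax7, Myf5, Myog, Myf6 and Myh4 were under the filter on low signal. Of 8 Schwann and glial markers 0 passed. As 10.9% of all tested genes passed, the myogenic and glial lists were near the share of all genes. Without EOM 1, TA 3 and TA 5, 21.8% of all genes passed. In that fit 19 endothelial, 12 pericyte and smooth muscle, 8 tenocyte and 11 leukocyte and macrophage markers fell. So did 3 adipocyte and 2 myogenic markers, and 0 of these lists' markers rose. Of the fibroblast list 10 rose and 1 fell, Smoc2 (-1.53, adjusted p = 0.000966). No marker tested was listed at 0, and the lowest signal of any was 2.0. The part of these cell types in the IGF differences was not tested.

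The genes most like each called IGF gene were found by the correlation of log2 signal over 12 arrays after the mean of each group was subtracted. The r values of the nearest genes are the highest among 13068 genes, so they are a description, and they share array quality. For Igf1 they were Cald1 (Pearson r = 0.99, Spearman rho = 0.97), Phldb2 (r = 0.99, rho = 0.91) and Tmem65 (r = 0.98, rho = 0.90). Between the groups Cald1, a caldesmon of the actin skeleton, went the other way, lower in EOM by a log2 fold change of -1.07 (adjusted p = 0.0440). Over the 9 arrays without EOM 1, TA 3 and TA 5, r was 0.96, 0.88 and 0.86 for these genes. Igfbp5 was closest to Tpm2 (r = 0.88, rho = 0.71), Asb4 (r = 0.88, rho = 0.87) and Actn1 (r = 0.87, rho = 0.66), with r of 0.94, 0.82 and 0.80 over the 9 arrays. Between the groups these genes too went the other way from Igfbp5, lower in EOM by log2 fold changes of -2.72, -1.66 and -1.47 (adjusted p = 8.55e-05, 0.00601 and 0.00585). Igfbp3 was closest to Cers2 (r = 0.95, rho = 0.72), Mrps7 (r = 0.94, rho = 0.87) and Alg1 (r = 0.94, rho = 0.81), with r of 0.89, 0.84 and 0.83 over the 9 arrays. For Igfbp4 the nearest were Pex6 (r = 0.98, rho = 0.87), Vps36 (r = 0.96, rho = 0.81) and Prelid1 (r = 0.96, rho = 0.84). Over the 9 arrays their r was 0.81, 0.75 and 0.66, and they ranked only 168, 318 and 642 of 13068 genes. The ranks over the 9 arrays were 4, 51 and 86 for the Igf1 genes, 8, 146 and 180 for those of Igfbp5 and 49, 155 and 176 for those of Igfbp3. None of the genes named is among the 3 nearest once the 3 arrays are left out.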

How the data were processed

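Total RNA of 12 side population preparations was amplified in 2 cycles, labelled with biotin and hybridized to Affymetrix mouse arrays, per the labels' protocols. The deposited values are signal intensities summarized by the authors with MAS5, per the submitters' processing notes. After a trim of 2% from both ends, every column had a mean of 150.0. Present calls are not analysed here, and 0 columns were unused. The platform annotation gave 1 symbol to 34958 probe sets, several to 932 and none to 9211, and 0 symbols needed updating.

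Signals were transformed as log2(signal + 16), so fold changes of dim genes are understated. The 64 control probe sets were removed and the 40% with the lowest mean were not tested. The test of EOM against TA was that of limma 3.58.1, run in R 4.3.3 (intensity trend, two-sided, Benjamini-Hochberg over all tested probe sets, threshold 0.05). The probe set of highest mean stands for its gene. Named pathway genes are those past the threshold, at most 3 in each direction from a list, and likeness names the 3 genes of highest r for each called gene. Exact permutation used all 924 assignments. Members and lists were chosen with earlier results of these data known. Preparations with the same number did not deviate together, so the fit has no block. Alternatives changed the constant, scaling, filter, trend, array weights, block, 3′ to 5′ ratio and arrays used.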

Additional observations from a re-analysis of the deposited data

Results flagged for a closer look

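Within each group of 6 arrays, the gap between an extreme array and its neighbour was compared with the range of log2 signal for all 28 IGF probe sets. In 10 of the 56 groups the gap exceeded the 95% limit for 6 samples, where chance gives about 5% of independent groups. These groups share arrays, and several share a gene. The share flagged over all probe sets was not computed, so whether the flags are particular to the IGF genes was not tested. The median signal over all probe sets was 87.2 on EOM 1, against 32.2 to 40.5 on the other EOM arrays. EOM 1 was the extreme array in all 10. It was the lowest EOM array for Igf1, with 873.5 on 1437401_at (the other EOM arrays had 5420 to 8370), 166.9 on 1434413_at (4826 to 6435) and 1475.7 on 1419519_at (3406 to 5430). It was also the lowest for Igfbp6, with 527.1 (3240 to 5252), and on Igfbp4 1423757_x_at, with 688.0 (3852 to 7519). On 2 other Igfbp4 probe sets it was the highest, with 39867.2 on 1437405_a_at (12258 to 14540) and 32321.1 on 1437406_x_at (11393 to 13671). It was likewise the highest on Igfbp5 1422313_a_at, with 1683.1 (91.4 to 158.4), on Igfbp2 1454159_a_at, with 229.5 (44.8 to 76.1), and on Igf2 1415931_at, with 190.5 (5.8 to 33.3). The 3′ to 5′ ratio of EOM 1 was the highest of the EOM arrays, and its part in these values was not tested.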

How the results depend on the processing

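The number of IGF probe sets called stayed between 10 and 15 under 24 alternatives, against 11 with the settings used. The count over all tested probe sets, 2225, was 1450 with median centring, 5488 with array weights, 4675 without EOM 1, TA 3 and TA 5, and 1579 to 4361 with 1 array left out, the highest without EOM 1; the cause was not tested. The log2 fold changes of Igfbp3 and Igfbp5 passed under all 25 alternatives for a gene (highest adjusted p 0.0475 and 0.00275). Igf1 did not pass with median centring (1.99, adjusted p = 0.104) or without TA 5 (1.68, adjusted p = 0.0527), and its adjusted p reached down to 4.81e-06 over the others. Igfbp6 passed with array weights (1.36, adjusted p = 0.000758), without EOM 1 (1.65) and without EOM 1, TA 3 and TA 5 (1.33), and elsewhere its adjusted p was at most 0.386. Igf2r, at 0.00, turned negative with an added constant of 1 (-9.2e-05), array weights (-0.25), the mean of its probe sets (-0.23) and without EOM 1, TA 3 and TA 5 (-0.22), and it ran from -0.21 to 0.15 with 1 array left out.

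Pairs of the same number had correlations of their deviations between -0.32 and 0.16, and 1 of 6 numbers correlated best with itself, so they were not taken as pairs. With the replicate number as a fixed block 1632 probe sets passed and 10 of the IGF probe sets did, and as a random block 1955 and 11. Igfbp4, at 1.26, then had an adjusted p of 0.0595 with the fixed block.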

Other observations

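Of the 76 pathway genes, 9 were called in the fit without EOM 1 but not with 12 arrays. They are named here after their values were seen. Calls over all tested probe sets also went up in that fit, to 4361 against 2225 with 12 arrays. Over all 13068 tested genes the share called went up to 20.5% from 10.9%. In that fit 22 of the 76 passed, so their share was near that of all genes. Irs1, the adaptor that carries the IGF1 receptor's signal to PI3 kinase, was at 1.70 without EOM 1 (adjusted p = 2.47e-05) and 1.27 with it (adjusted p = 0.0620). In the PI3K, AKT and mTOR arm, Akt2, one of the AKT kinases, was at 1.06 (adjusted p = 0.00217) and 0.77 (adjusted p = 0.162), and the PI3 kinase regulatory subunit Pik3r1 at 0.80 (adjusted p = 0.0121) and 0.56 (adjusted p = 0.298). Rheb, the small GTPase that activates mTOR, was at 1.01 (adjusted p = 0.0125) and 0.45 (adjusted p = 0.725). Rictor, a subunit of mTOR complex 2, was at 0.81 (adjusted p = 0.0342) and 0.77 (adjusted p = 0.0761). Eif4ebp1, the translation repressor that mTOR inactivates, was lower, at -1.29 (adjusted p = 0.00273) and -1.05 (adjusted p = 0.0664). The others were the transcription factors Stat5b (0.77) and Stat5a (-1.09) and the integrin subunit Itgb3 (1.01). Without EOM 1, TA 3 and TA 5, Rictor (0.62, adjusted p = 0.0736) and Stat5a (-0.74, adjusted p = 0.0790) did not pass and the other 7 did.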
